A study of Mus musculus with 6 samples.

Results

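Transcripts of the oxygen-sensing pathway, its targets and glycolysis were examined in retinae of newborn mice that lacked Meg2. The list held 39 gene symbols, and 37 of them were read by at least 1 transcript cluster annotated to that gene alone, out of 19938 genes read in this way. A transcript cluster is the group of probes that covers a transcript, and for each gene the cluster with the highest mean over the 6 arrays was used. Gpi1 and Eno1 had no cluster annotated to that gene alone and were not analysed here. The 37 genes fall into 9 HIF factors and oxygen sensors, 9 hypoxia targets outside glycolysis and 19 genes of glucose and lactate transport and glycolysis.

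The groups were Meg2 knockout pups (3 arrays) and wild-type pups (3 arrays), all at postnatal day 0 on a C57BL/6NTac background, with both retinae of an animal pooled before RNA extraction. Meg2 is a protein tyrosine phosphatase, and Ptpn9 is its gene. The sources used here do not say which part of the gene was deleted or whether the deletion was limited to some cells. Values are log2 signals, normalised by the authors, from whole-transcript arrays. Replicate numbers 1 to 3 occur in both genotypes.

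Hypoxia-inducible factors (HIFs) are dimers of an oxygen-labile alpha subunit and a stable beta subunit. In oxygenated cells, prolyl hydroxylases mark the alpha subunit, and the von Hippel-Lindau protein then captures it for destruction. When oxygen falls, the alpha subunit persists, and the dimer binds short elements with an ACGTG or GCGTG core and switches on genes of glucose uptake, glycolysis, lactate export and vessel growth. Control of the alpha subunits is thus largely at the level of the protein. The newborn mouse retina is still mostly without vessels, which spread over it after birth from the optic nerve head, and retinal cells rely strongly on glycolysis.

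Several facts of the series bear on every value below. Ptpn9 read 0.58 lower in the knockout (SE 0.087, log2 scale), and its arrays did not overlap. Its adjusted p in limma was 0.437, or 0.288 with the replicate number as a block. The targeted gene itself thus did not pass an adjusted p of 0.05. Array medians ran from 7.84 to 7.91 on the log2 scale. The retina list had 14 measured markers, with a mean log2 signal of 11.35 to 11.45 on knockout arrays and 11.36 to 11.42 on wild-type arrays. Xist, transcribed from the inactive X chromosome, read 12.58, 12.54 and 6.26 on knockout arrays 1 to 3 and 12.73, 12.54 and 6.52 on wild-type arrays 1 to 3. The Y-linked gene Uty read 5.22, 7.18 and 9.53 on the knockout arrays and 4.71, 7.67 and 9.34 on the wild-type arrays. The replicate number therefore moved together with the sex pattern, and the replicate 2 arrays of both genotypes had Xist as well as Y-linked signal, which goes against the label of 1 animal per array. In bulk tissue, fewer cells of a type and less RNA per cell cannot be told apart. No member passed an adjusted p of 0.05 in limma, in which 0 of 23410 clusters passed (background 0%), and 1 cluster, which is no member, passed with the replicate number as a block (background 0.00427%).

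Among the members, 26 of 37 differences between knockout and wild type lay above 0 (70.3%), against 50.7% of all named clusters, and their median was 0.042 on the log2 scale, against 0.0012. In the list, 2 members had an unadjusted p under 0.05 in limma, both higher in the knockout (5.41%, background 1.69%), and 0 were lower (background 1.74%). With the replicate number as a block, 7 members were higher (18.9%, background 4.46%) and 1 was lower (background 4.36%) at this unadjusted level. Within every one of the 3 replicate numbers, 13 members read higher in the knockout (35.1%, background 16.5%) and 2 read lower (background 15.9%). Without the array of knockout replicate 3, 20 of 37 differences lay above 0 (54.1%, background 49.8%) and the median was 0.0073. Without replicate 3 of both genotypes, 21 of 37 lay above 0, with a median of 0.015. The size of the list's shift thus depended on replicate 3, as the map of members by array shows.

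**Figure D1:**
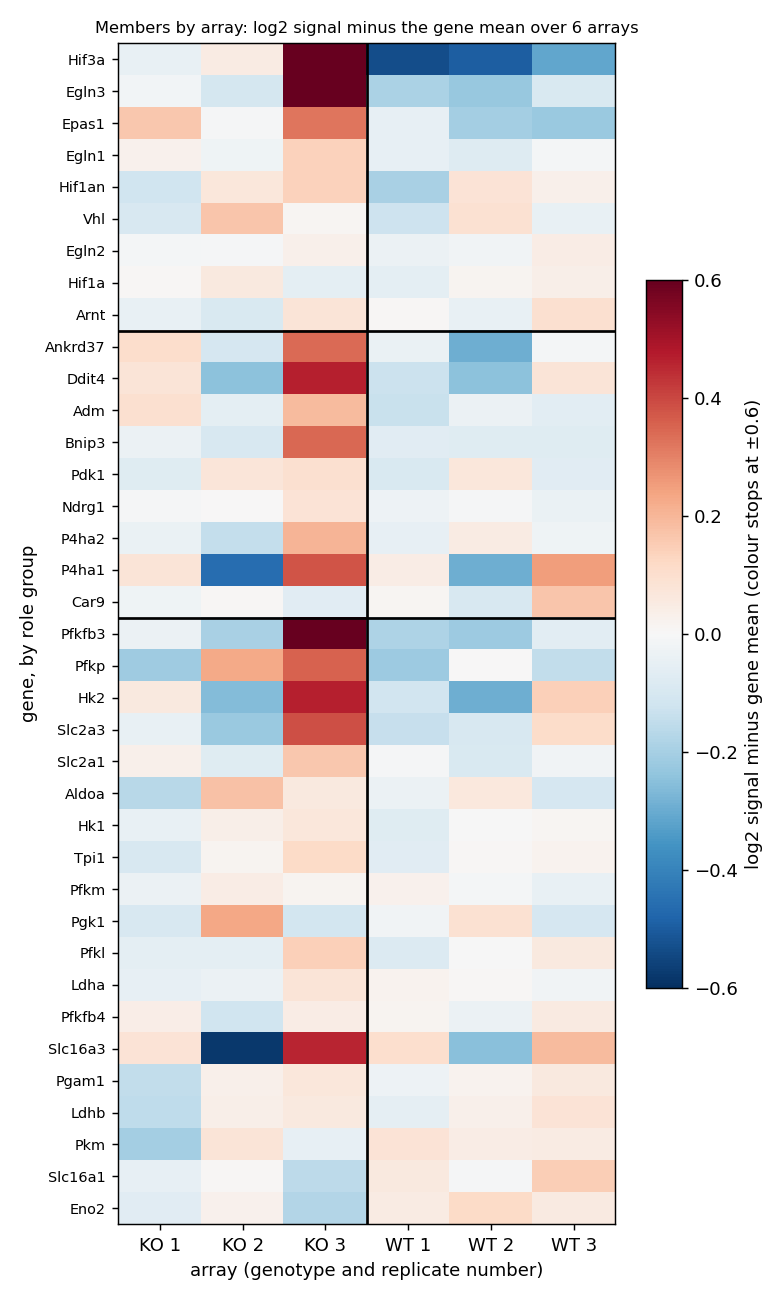
Each cell gives the log2 signal of 1 gene (rows, by role group: HIF factors and oxygen sensors, hypoxia targets outside glycolysis, transport and glycolysis) on 1 array (columns, KO knockout, WT wild type, with replicate number), minus the gene's mean over 6 arrays; lines part the genotypes and role groups. The knockout replicate 3 column is the highest of the 6 arrays for 24 of 37 genes.

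Of the alpha subunit genes, Epas1 and Hif3a read higher on every knockout array than on any wild-type array, and Hif1a did not. Hif1a, the broadly expressed alpha subunit, read 12.55, 12.60 and 12.49 on knockout arrays and 12.49, 12.56 and 12.58 on wild-type arrays. These groups overlapped, and the difference was 0.0058 (SE 0.061, 95% interval -0.13 to 0.14). Epas1, the alpha subunit also known as HIF-2 alpha and prominent in endothelium, read 9.94, 9.77 and 10.10 in the knockout and 9.73, 9.58 and 9.56 in the wild type. The lowest knockout array thus lay above the highest wild-type array, and the difference was 0.32 (SE 0.091; limma, unadjusted p = 0.00734, adjusted p = 1.00). Epas1 read higher in the knockout within each replicate number, by 0.21, 0.20 and 0.54, and the difference was 0.23 without knockout replicate 3.

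Hif3a encodes a further alpha subunit, some splice forms of which act as inhibitors of the other alpha subunits. It read 9.36, 9.46 and 10.75 in the knockout and 8.88, 8.91 and 9.10 in the wild type. The genotypes did not overlap, and the knockout replicate 3 array stood 1.29 above the next array. The difference was 0.90 (SE 0.31; limma, unadjusted p = 0.0181, adjusted p = 1.00), or 0.45 without that array. Within replicate numbers 1 to 3 the knockout arrays were higher by 0.49, 0.55 and 1.65. Epas1 and Hif3a were the 2 members whose knockout arrays all lay above the wild-type arrays (5.41%, background 4.08%), and 1 member lay below without overlap (background 4.35%). The count of members without overlap was thus near the background and does not set the list apart.

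Arnt, the shared beta subunit, read 11.35, 11.30 and 11.48 in the knockout and 11.40, 11.35 and 11.49 in the wild type, with a difference of -0.040 (SE 0.069). Its arrays of the same number lay close together in both genotypes. Vhl, the substrate receptor of the ubiquitin ligase for alpha subunits, differed by 0.052 (SE 0.085). Hif1an, an asparaginyl hydroxylase that blocks coactivator binding, differed by 0.057 (SE 0.094). The prolyl hydroxylase genes Egln1 and Egln2 differed by 0.091 (SE 0.063) and 0.0090 (SE 0.056). The intervals of these 4 genes included 0, at -0.14 to 0.25 for Vhl and -0.16 to 0.27 for Hif1an, and at -0.052 to 0.23 for Egln1 and -0.12 to 0.14 for Egln2.

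Egln3, the prolyl hydroxylase that is itself a strongly induced hypoxia target, stood out on 1 array. It read 8.83, 8.74 and 9.48 in the knockout and 8.66, 8.62 and 8.76 in the wild type. The knockout replicate 3 array stood 0.65 above the next array, and the other 5 arrays overlapped. The difference was 0.34 (SE 0.17; limma, unadjusted p = 0.0745 and 0.0224 with the replicate block), or 0.11 without knockout replicate 3.

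An array was said to stand apart where it lay at the end of the 6 values, over 0.3 from its neighbour and with over 50% of the whole range in that gap. By this description 5 of 37 members had an array that stood apart, and in all 5 it was knockout replicate 3 on the high side (13.5%, background 0.278%, or 65 of 23410 clusters). Any array stood apart in 1.07% of all clusters. Beside Hif3a and Egln3 these were Pfkfb3, Bnip3 and Ddit4. Knockout replicate 3 was also the highest of the 6 arrays for 24 of 37 members (64.9%, background 19.7%), among them 8 of the 9 hypoxia targets outside glycolysis, Car9 being the exception.

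Pfkfb3 encodes the enzyme that makes fructose 2,6-bisphosphate, an activator of glycolysis. It read 9.02, 8.86 and 9.75 in the knockout and 8.87, 8.84 and 8.99 in the wild type. The difference of 0.31 (SE 0.20) was 0.040 without knockout replicate 3. Bnip3, a mitochondrial protein that promotes mitophagy, read 11.09, 11.03 and 11.47 in the knockout and 11.05, 11.05 and 11.05 in the wild type. Its difference of 0.14 (SE 0.11) was 0.0073 without that array. A second, dimmer Bnip3 cluster had its highest value on the same array, at 10.97 against 10.27 to 10.56 elsewhere. Ddit4, an inhibitor of the growth kinase complex mTORC1 that responds to low oxygen and to glucocorticoids, read 10.36, 10.04 and 10.75 in the knockout and 10.15, 10.04 and 10.36 in the wild type. Its difference of 0.20 (SE 0.16) was 0.014 without knockout replicate 3. In these 3 genes the other 5 arrays overlapped. Without replicate 3 of both genotypes, which keeps the arrays paired by number, the differences were 0.086 for Pfkfb3, 0.0076 for Bnip3 and 0.10 for Ddit4. Within numbers 1 to 3 the Ddit4 difference was 0.20, -0.00089 and 0.39, and its unadjusted p was 0.253 in limma and 0.0375 with the replicate block.

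**Figure D2:**
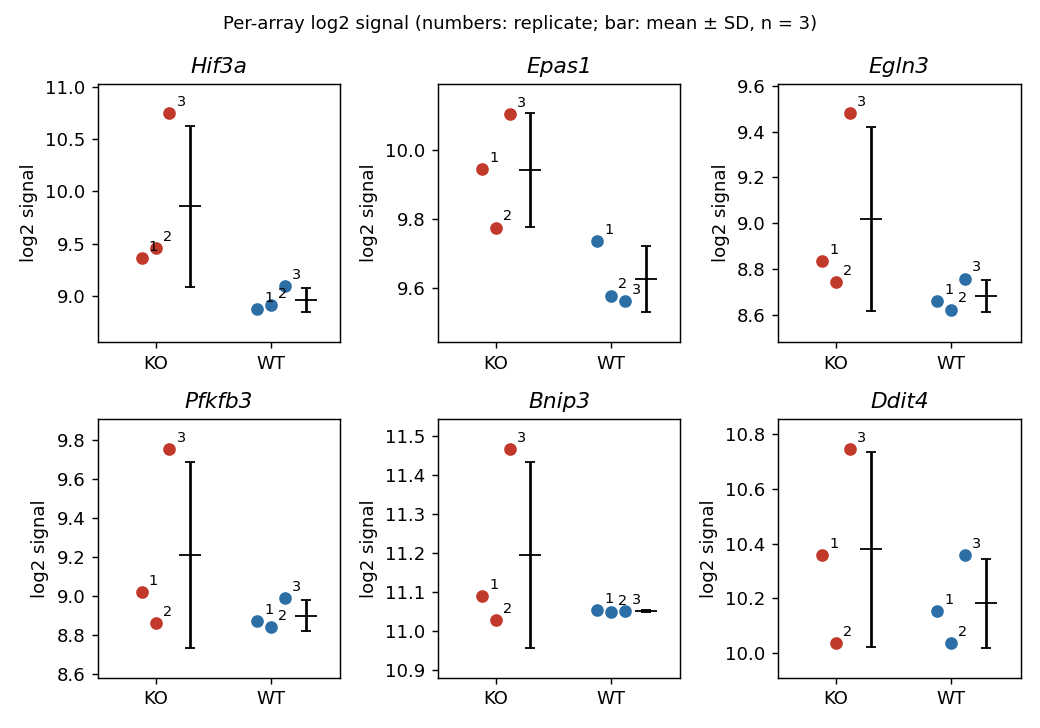
Log2 signal of 6 members (vertical axis, own scale per gene) on knockout (KO, left) and wild-type (WT, right) arrays, 1 point per array with its replicate number, and mean ± SD (n = 3) as a bar. Knockout replicate 3 stands apart in every panel but that of Epas1, where it lies 0.16 above the next array.

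For these genes the stretch before the transcript start was read for the HIF core, since they were high together on 1 array. The core was searched as ACGTG and GCGTG on both strands (CACGT and CACGC on the printed strand) in RefSeq windows of 300 bases, from 250 before to 50 after each start in GRCm38.p6. The 250 bases before the start are printed 5′ to 3′ for the 4 genes with the largest differences among those with an array that stood apart and a match, with the matches in capitals. All 4 lie on the minus strand, Hif3a at chr7:17062428-17062677, Egln3 at chr12:54203875-54204124, Pfkfb3 at chr2:11502091-11502340 and Ddit4 at chr10:59951771-59952020.
Hif3a: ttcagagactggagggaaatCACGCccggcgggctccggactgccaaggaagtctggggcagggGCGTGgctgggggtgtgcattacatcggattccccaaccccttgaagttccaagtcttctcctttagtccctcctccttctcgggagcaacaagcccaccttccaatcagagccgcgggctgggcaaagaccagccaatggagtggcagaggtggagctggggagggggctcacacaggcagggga
Egln3: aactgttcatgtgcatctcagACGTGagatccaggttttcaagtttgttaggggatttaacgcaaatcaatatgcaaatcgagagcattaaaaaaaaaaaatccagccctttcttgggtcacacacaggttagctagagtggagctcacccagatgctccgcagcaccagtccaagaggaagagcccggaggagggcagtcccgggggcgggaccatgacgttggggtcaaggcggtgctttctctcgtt
Pfkfb3: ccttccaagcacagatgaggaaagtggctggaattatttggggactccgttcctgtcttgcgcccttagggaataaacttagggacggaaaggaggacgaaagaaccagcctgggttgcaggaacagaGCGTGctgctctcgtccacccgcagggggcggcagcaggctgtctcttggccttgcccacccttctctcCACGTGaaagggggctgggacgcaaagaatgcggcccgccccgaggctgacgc
Ddit4: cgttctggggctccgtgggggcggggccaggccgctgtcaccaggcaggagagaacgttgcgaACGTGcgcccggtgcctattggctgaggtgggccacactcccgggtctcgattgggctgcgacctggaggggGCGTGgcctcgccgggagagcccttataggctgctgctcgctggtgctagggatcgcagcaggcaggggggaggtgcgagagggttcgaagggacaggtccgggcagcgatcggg
The Hif3a stretch holds 2 matches, the Egln3 stretch 1, the Pfkfb3 stretch 3 and the Ddit4 stretch 2. In Pfkfb3, 2 of the 3 overlap within CACGTG, which is also the E-box core of other factors. Of the 34 measured members with a window in the RefSeq table, 30 held at least 1 match (88.2%), against 8632 of 15614 genes with a cluster of their own (55.3%). Every one of the 8 hypoxia targets outside glycolysis in the table held a match, as did 6 of 8 HIF factors and oxygen sensors and 16 of 18 transport and glycolysis genes. Vhl, Hif1an, Tpi1 and Eno2 held none. Such a match is a description of letters and not a binding site, many members were listed because they are known HIF targets, and so short a core is common.

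Among the hypoxia targets outside glycolysis, 7 of 9 differences lay above 0 (background 50.7%), with a median of 0.062, or 0.014 without knockout replicate 3, and 0 had an unadjusted p under 0.05 (background 3.43% either way), too few genes to set that count apart from the background. Ankrd37, a small ankyrin repeat protein strongly induced by low oxygen, read 8.27, 8.06 and 8.50 in the knockout and 8.12, 7.87 and 8.15 in the wild type. Within replicate numbers 1 to 3 the knockout array was higher by 0.15, 0.19 and 0.35, although the genotypes overlapped. The difference was 0.23 (SE 0.12; limma, unadjusted p = 0.0822) and its SE with the replicate block was 0.056 (unadjusted p = 0.0051, adjusted p = 0.514).

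Adm, which encodes the vasodilator peptide adrenomedullin, read 7.13, 6.98 and 7.22 in the knockout and 6.90, 7.00 and 6.98 in the wild type, a difference of 0.15 (SE 0.074). Pdk1, a kinase that shuts off pyruvate dehydrogenase, differed by 0.062 (SE 0.072). Ndrg1, a stress-responsive gene linked to differentiation and myelin, differed by 0.050 (SE 0.056). Car9, the carbonic anhydrase that acidifies the surroundings of hypoxic cells, read 6.80, 6.83 and 6.76 in the knockout and 6.84, 6.73 and 6.99 in the wild type, with a difference of -0.056 (SE 0.075). It was the 1 member under the 25th percentile of mean signal, and it was lowest on knockout replicate 3 among the knockout arrays. The collagen prolyl hydroxylase genes P4ha1 and P4ha2 differed by -0.0012 (SE 0.20) and 0.017 (SE 0.089).

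The large SE of P4ha1 came from a pattern by replicate number that both genotypes shared. P4ha1 read 10.49, 9.96 and 10.80 in the knockout and 10.46, 10.13 and 10.67 in the wild type, so replicate 2 was lowest and replicate 3 highest in each. The mean of a replicate number over both genotypes spanned 0.69. Slc16a3, the lactate exporter MCT4 that hypoxia induces, read 10.67, 10.01 and 11.05 in the knockout and 10.69, 10.34 and 10.78 in the wild type. Its replicate means spanned 0.74 while the genotype difference was -0.028 (SE 0.23). Hk2, the inducible hexokinase, read 8.74, 8.42 and 9.15 in the knockout and 8.57, 8.39 and 8.82 in the wild type, with replicate means that spanned 0.58. Its genotype difference was 0.18 (SE 0.17), -0.0099 without knockout replicate 3 and 0.11 without replicate 3 of both genotypes. Within numbers 1 to 3 the knockout array was higher by 0.18, 0.036 and 0.32 (limma, unadjusted p = 0.331 and 0.0280 with the replicate block).

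In 31 of 37 members the span of the replicate means exceeded the genotype difference (83.8%, background 85.0%), so this alone did not set the members apart from other clusters. Their replicate means spanned a median of 0.16, against 0.13 over all clusters. The 3 replicate numbers stood in the same order in both genotypes for 19 of 37 members (51.4%, background 32.1%). Replicate 3 was highest in both genotypes for 18 members (48.6%, background 18.6%). Over the 37 members, deviations from the genotype means correlated between knockout and wild-type arrays of the same number at Pearson's r of 0.52, 0.78 and 0.58 for numbers 1, 2 and 3. Over all clusters these correlations were 0.48, 0.48 and 0.45. By role, the same order held for 6 of 9 HIF factors and oxygen sensors, 3 of 9 hypoxia targets outside glycolysis (33.3%, near the background) and 10 of 19 transport and glycolysis genes. Sex pattern and replicate number cannot be told apart here.

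**Figure D3:**
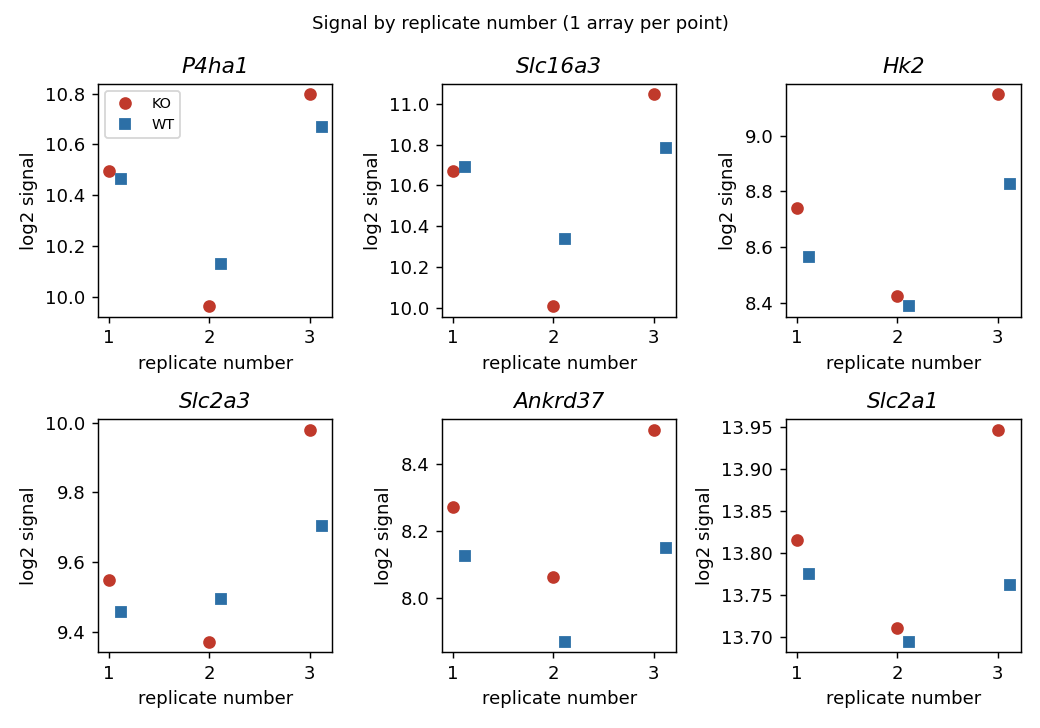
Log2 signal (vertical axis, own scale per gene) of 6 members by replicate number (horizontal axis), 1 point per array, with knockout (KO) as circles and wild type (WT) as squares. In P4ha1, Slc16a3, Hk2, Ankrd37 and Slc2a1 replicate 2 is lowest in both genotypes, and in Slc2a3 it is lowest in the knockout only.

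Genes of glucose entry and lactate transport showed no common direction. Slc2a1, the glucose transporter GLUT1 of blood vessels and neural tissue, read 13.82, 13.71 and 13.95 in the knockout and 13.78, 13.69 and 13.76 in the wild type, with a difference of 0.080 (SE 0.072). Slc2a3, the neuronal transporter GLUT3, read 9.55, 9.37 and 9.98 in the knockout and 9.46, 9.50 and 9.70 in the wild type, with a difference of 0.082 (SE 0.14). Slc16a1, the lactate carrier MCT1, read 9.66, 9.72 and 9.56 in the knockout and 9.77, 9.71 and 9.86 in the wild type, with a difference of -0.13 (SE 0.069). Slc16a1 was lowest and Slc16a3 highest on knockout replicate 3.

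Differences of the glycolytic enzymes lay close to 0 as a group. Over the 13 measured enzymes 8 differences lay above 0 (background 50.7%), their median was 0.020, and 5 lay above 0 with a median of -0.029 without knockout replicate 3. Of the 13, 0 had an unadjusted p under 0.05 (background 3.43% either way). Ldha, the lactate dehydrogenase subunit that HIF induces, differed by -0.0057 (SE 0.060, 95% interval -0.14 to 0.13). The triose phosphate isomerase gene Tpi1 differed by 0.023 (SE 0.069) and the aldolase gene Aldoa by 0.049 (SE 0.092). Pgk1 and Pgam1, which act in lower glycolysis, differed by 0.020 (SE 0.099) and -0.032 (SE 0.071). Pfkl and Pfkm, the liver and muscle subunits of phosphofructokinase, differed by 0.015 (SE 0.075) and 0.020 (SE 0.057), and Ldhb by -0.040 (SE 0.075).

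Besides Hk2, the enzyme genes with an unadjusted p under 0.05 in the blocked fit were Pfkp and Eno2. Of the 13 enzymes 2 were thus higher (15.4%, background 4.46%) and 1 lower (background 4.36%), and none passed correction. Pfkp, the platelet subunit of phosphofructokinase, read 9.55, 9.99 and 10.12 in the knockout and 9.55, 9.77 and 9.62 in the wild type. Its difference was 0.24 (SE 0.14; limma, unadjusted p = 0.106 and 0.0336 with the replicate block), or 0.13 without knockout replicate 3. Eno2, the neuronal enolase, read 10.11, 10.21 and 10.01 in the knockout and 10.23, 10.30 and 10.24 in the wild type. All knockout arrays lay below all wild-type arrays, the only member with this order, and the difference was -0.15 (SE 0.067; limma, unadjusted p = 0.0581 and 0.0252 with the replicate block).

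Pkm, the pyruvate kinase of most tissues other than liver and red cells, read 12.48, 12.76 and 12.63 in the knockout and 12.76, 12.72 and 12.73 in the wild type. Its difference was -0.12 (SE 0.076), and knockout replicate 1 was its lowest array. Pkm lies on chromosome 9, as does Ptpn9, with 48 other measured genes between them in GRCm38.p6. Pfkfb4, a relative of Pfkfb3, lies on the same chromosome with 449 genes between, and differed by -0.022 (SE 0.066).

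Some enzyme clusters may read related sequence. Hk1, the hexokinase of neural tissue, differed by 0.042 (SE 0.060) on its brightest cluster, which the annotation ties to Hk1 through 1 accession only. A dimmer Hk1 cluster with 8 accessions differed by -0.088 (SE 0.065). Another 16 clusters are annotated to Hk1 together with the ribosomal protein gene Rpl17, and these were not used. Pgk1 had 3 clusters, of which 2 held the same values, with differences of 0.020, 0.020 and 0.031. Pgam1 had 3 clusters that differed by -0.032, -0.022 and -0.022, Pkm had 2 at -0.12 and -0.049, and Ldhb had 2 at -0.040 and -0.015.

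**Figure D4:**
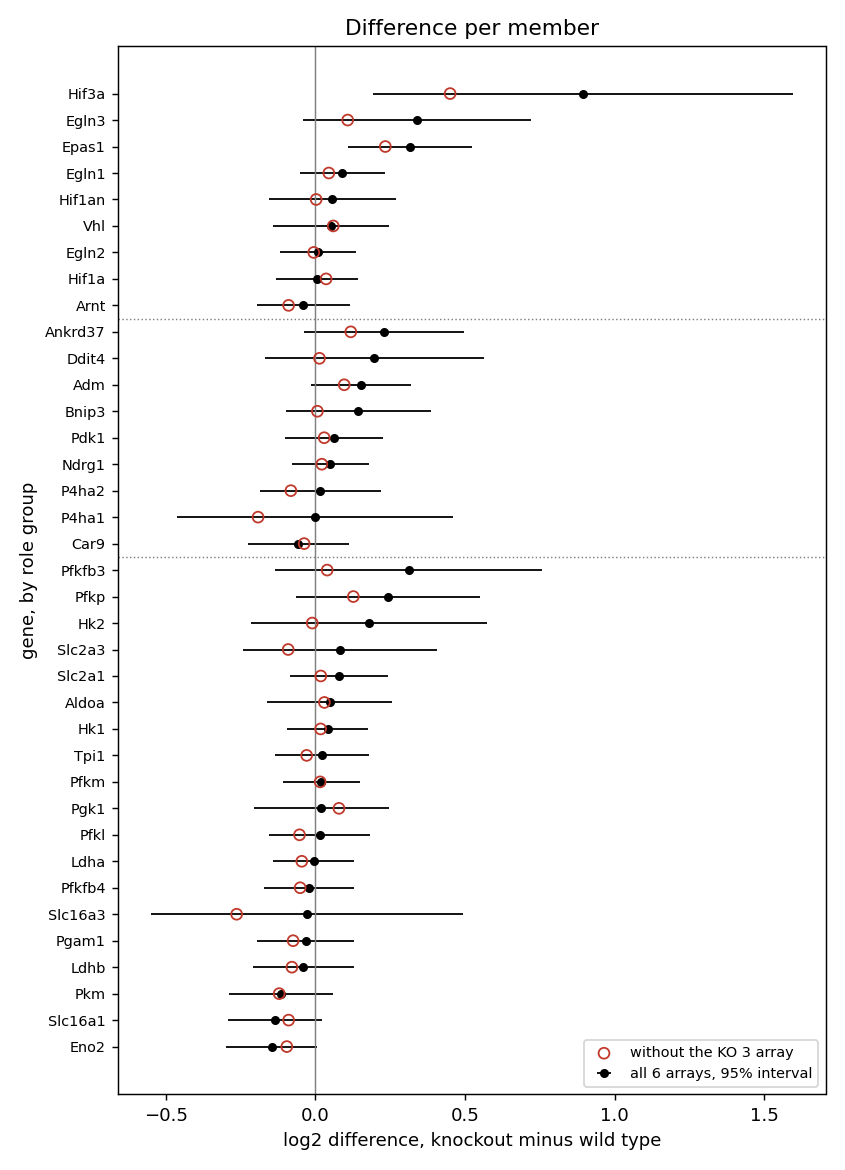
Log2 difference, knockout minus wild type (horizontal axis), of the 37 members by role group from top to bottom (HIF factors and oxygen sensors, hypoxia targets outside glycolysis, transport and glycolysis). Filled points with bars are the difference over 6 arrays with its 95% interval from limma, unadjusted. Open circles are the difference without knockout replicate 3. They lie nearer 0 for Hif3a, Egln3, Pfkfb3, Ddit4 and Bnip3, where a lower difference follows from that array standing apart on the high side.

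Read by role, the median deviation of the HIF factors and oxygen sensors from their gene means was -0.016, -0.0059 and 0.14 on knockout arrays 1 to 3 and -0.060, -0.043 and -0.012 on wild-type arrays. The hypoxia targets outside glycolysis gave -0.0091, -0.095 and 0.20 on knockout arrays and -0.049, -0.074 and -0.025 on wild-type arrays. The transport and glycolysis genes gave -0.050, 0.016 and 0.069 on knockout arrays and -0.030, -0.00013 and 0.048 on wild-type arrays. Knockout replicate 3 was the highest of the 6 arrays in each role group, and most so in the targets. Their median within-number difference was 0.032, -0.00089 and 0.23 for numbers 1, 2 and 3, against 0.072, 0.052 and 0.11 for the factors and sensors.

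Other genes of the pathway were read from a further list of 69 symbols, some of them an older and a newer name of 1 gene, of which 60 had a cluster. In that list 37 of 60 differences lay above 0 (61.7%), with a median of 0.026, against 50.7% above 0 and a median of 0.0012 over all clusters. At an unadjusted p under 0.05, 2 were higher (background 1.69%) and 2 lower (background 1.74%), and none passed correction (limma, lowest adjusted p 1.00). Stc1, the glycoprotein hormone stanniocalcin and a hypoxia target, read 8.02, 8.01 and 8.17 in the knockout and 7.61, 7.88 and 7.93 in the wild type (0.26, SE 0.092). Mxi1, a MAX partner that hypoxia induces, read 10.38, 10.42 and 10.57 in the knockout and 10.30, 10.25 and 10.32 in the wild type (0.16, SE 0.067). In neither gene did the genotypes overlap. Over the list, 6 of 60 genes lay higher without overlap (background 4.08%) and 3 lower (background 4.35%). Knockout replicate 3 was the highest array for 21 of 60 (background 19.7%) and stood apart on the high side in 2 (background 0.278%). Without that array 32 of 60 differences lay above 0 (background 49.8%), with a median of 0.0084.

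The genes lower at that unadjusted level were Adpgk and Hkdc1. Adpgk, the ADP-dependent glucokinase, read 8.78, 8.63 and 9.04 in the knockout and 9.22, 9.08 and 9.25 in the wild type (-0.37, SE 0.10; limma, unadjusted p = 0.00596). It lies on chromosome 9 with 41 measured genes between it and Ptpn9. Hkdc1, a hexokinase domain protein, read 10.35, 10.38 and 10.50 in the knockout and 10.57, 10.58 and 10.69 in the wild type (-0.20, SE 0.066; limma, unadjusted p = 0.0129). The genotypes did not overlap in either gene. Dlat, Car12 and Higd1a of this list also lie on chromosome 9, with 70, 121 and 584 genes between them and Ptpn9. They differed by 0.019, 0.15 and -0.16. Of the members on this chromosome, Pkm, with 48 genes between it and Ptpn9, differed by -0.12 (SE 0.076). Pfkfb4, with 449 genes between, differed by -0.022 (SE 0.066). A link of these differences to the position was not tested.

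By likeness over the 6 arrays, the genes closest to Hif3a were those with the highest Pearson's r among 39 genes whose range was at least 0.5 of that of Hif3a. These were the lens crystallin genes Cryba1 (r = 0.98), Cryaa (0.97) and Crygd (0.96), the glycogen-targeting phosphatase subunit gene Ppp1r3c (0.98), Ms4a6c (0.98), a membrane protein gene of myeloid cells, and the retinol carrier gene Rbp4 (0.96). Ppp1r3c read 7.52, 7.81 and 9.13 in the knockout and 7.33, 6.96 and 7.46 in the wild type. Cryaa read 7.70, 7.78 and 8.70 in the knockout and 7.60, 7.58 and 7.42 in the wild type. All 6 were highest on knockout replicate 3. These r values describe 6 arrays that share that 1 high value.

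Marker lists of other cells were set beside these values, to be read against 50.7% of all clusters above 0 and 19.7% highest on knockout replicate 3. The 20 measured lens markers had a mean log2 signal of 7.70, 7.54 and 7.71 in the knockout and 7.63, 7.50 and 7.54 in the wild type, 16 of 20 had differences above 0, and 4 of 20 were highest on knockout replicate 3. With the lens mean as a covariate the Hif3a difference was 0.67 (SE 0.38) and that of Epas1 0.18 (SE 0.074). The lens mean was nearly the same on knockout arrays 1 and 3. It therefore follows neither a signal that is high on knockout replicate 3 alone nor the lens markers that were highest there. Of those 4 markers, Cryaa read 8.70 on that array, against at most 7.78 on the others. Cryba1 read 7.32 there, against at most 6.20. A lens part in signal that is high on that array was not tested. The 14 endothelial markers averaged 7.84, 7.60 and 7.88 on knockout arrays and 7.70, 7.54 and 7.57 on wild-type arrays, with 13 of 14 above 0 and 6 of 14 highest on knockout replicate 3. The 7 pericyte markers averaged 7.91, 7.73 and 7.88 in the knockout and 7.73, 7.70 and 7.67 in the wild type, with 5 of 7 above 0. The 10 microglial markers averaged 8.13, 7.97 and 8.20 in the knockout and 7.98, 7.93 and 8.03 in the wild type, with 8 of 10 above 0. Of the other lists, 5 of 6 astrocyte markers, 6 of 8 pigment epithelium markers, 1 of 3 red cell markers and 3 of 7 corneal and ciliary markers had differences above 0. Their means in the knockout and wild type ran from 7.58 to 7.64 and 7.44 to 7.60 for astrocytes, and from 7.13 to 7.45 and 7.11 to 7.26 for pigment epithelium. For red cells they ran from 7.12 to 7.21 and 7.18 to 7.21, and for corneal and ciliary epithelium from 8.29 to 8.35 and 8.29 to 8.31. Of the 9 glucocorticoid-responsive genes, of interest for Ddit4, 7 had differences above 0, with a median of 0.22. Their mean log2 signal was 9.19, 9.73 and 9.56 in the knockout and 9.06, 9.48 and 9.03 in the wild type. That mean was highest on replicate 2 in both genotypes, where Ddit4 was lowest. Per1, Klf9, Zbtb16, Mt1 and Mt2 followed the mean, but Fkbp5 and Tsc22d3 were highest on replicate 3 in both genotypes. Sgk1 was lowest on replicate 2 in both, as Ddit4 was. Klf15 was highest on replicate 3 in the knockout and on replicate 1 in the wild type. A glucocorticoid part in the Ddit4 values was not tested. On this log2 scale no marker was at 0. The part of the signal of these cells in the member differences was not tested, and for lens the covariate does not settle it.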

How the data were processed

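Retinal RNA of 3 Meg2 knockout and 3 wild-type newborn mice was read on Affymetrix Mouse Gene 1.0 ST arrays, 1 array per sample. The authors deposited a log2 signal for each transcript cluster, made with Expression Console and RMA per the submitters' processing notes. RMA corrects background, gives all arrays 1 distribution and summarises probes, so it takes out any shift common to most transcripts. The sources used here give no tool version, annotation release or scan date. Replicates are called biological in the labels.

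The table held 35557 clusters, of which a platform annotation gave at least 1 gene for 23410 and exactly 1 for 21789. All 23410 were fitted with limma 3.58.1 (lmFit and eBayes, R 4.3.3) with no filter on dim signal, and p-values were adjusted by Benjamini-Hochberg over all of them with 0.05 as the threshold. Differences are knockout minus wild type. The code was tested on simulated data. An exact permutation test of 3 against 3 can reach p = 0.1 at the lowest and was not used for single genes. The number of arrays limits the precision.

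The labels give the replicate numbers but not their meaning. Deviations from the genotype means correlated between same-numbered arrays at 0.476, 0.485 and 0.455 for numbers 1, 2 and 3. Pairing was taken to hold above 0.1, and a blocked fit was therefore added. Median centring, cyclic loess, a variance trend, array weights, a filter at the 25th percentile of signal, every row in the fit, the mean of a gene's clusters, lens signal as a covariate and each array left out were the other alternatives. The members, lists, tests and the rule for named genes were chosen with earlier results of these data known. The rule named all HIF factors and sensors, members with an unadjusted p under 0.05 in either fit, arrays that did not overlap or an array that stood apart, and the largest differences of each role group. Other members were named to account for the list. Protein sequences were not used here. Promoter windows are from RefSeq. Summaries used Python 3.11.15 with pandas 2.3.3.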

Additional observations from a re-analysis of the deposited data

How the results depend on the processing

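No member passed an adjusted p of 0.05 under any alternative, and directions below are those of uncalled values. With the replicate number as a block, 8 members had an unadjusted p under 0.05 in limma, against 2 without it, 2063 named clusters against 803, and 1 named cluster passed the adjusted threshold, against 0. The block changed no other call. Array weights gave 5 members at the unadjusted level, a count given without the share over all clusters in that fit. Leaving out 1 array at a time gave 2 (without knockout replicate 3) to 10 members (without knockout replicate 2) at that level. Named clusters at that level ranged from 636 (without wild-type replicate 2) to 1298 (without knockout replicate 1). The ends of these 2 ranges come from different fits, so the member counts cannot be read against the cluster counts. The median difference of the hypoxia targets outside glycolysis then ranged from 0.014 to 0.22 and that of transport and glycolysis genes from -0.045 (without knockout replicate 3) to 0.049, against 0.062 and 0.020 over all arrays. That of HIF factors and oxygen sensors ranged from 0.0025 (without wild-type replicate 1) to 0.11. The Hk2 difference then ranged from -0.0099 (without knockout replicate 3) to 0.35 (without knockout replicate 2). With lens signal as a covariate the median of HIF factors and oxygen sensors was 0.14, against 0.057, that of transport and glycolysis genes -0.0021, and 1543 named clusters had an unadjusted p under 0.05, while 8 of 37 members changed sign, 6 of them to below 0. Among these, Ddit4, Slc2a1 and Hk2 turned to -0.015, -0.0036 and -0.044 and Slc2a3 to -0.050. P4ha1 and Slc16a3, already below 0 at -0.0012 and -0.028, stood at -0.32 and -0.42. The cause was not tested. Chosen after seeing the data, fits without replicate 2 of both genotypes gave 6 members at the unadjusted level, again without the share over all clusters. Fits without replicate 3 gave 1 member, 470 named clusters and a transport and glycolysis median of -0.015. The array number, 3 per genotype, limits every value.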
